A study of Mus musculus with 8 samples.

Results

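The 38 genes described here encode the machinery that carries nuclear-encoded proteins into mitochondria and folds them there. They were chosen by name from the array annotation, as genes whose symbol starts with Tomm or Timm followed by a digit, plus 14 named genes of the sorting and assembly machinery, the import motor, the oxidation pathway between the membranes, the processing peptidase and the matrix chaperones. They are 38 of 19938 genes with a probe set of their own. Each gene is represented by its brightest probe set over the 8 arrays. This choice used the mean level and not the difference between groups, but the group of genes was proposed with results of the same comparison known. The counts of members below are therefore descriptions and support nothing beyond themselves. Timm10b shares its probe set with Dnhd1 and was not analysed here.

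Of the groups compared, the first was peritoneal macrophages cultured with acetylated low-density lipoprotein (acLDL), a chemically modified LDL whose uptake by scavenger receptors fills macrophages with cholesterol (4 arrays). The second was the same kind of cells cultured without it (4 arrays). The medium of both was DMEM with fetal bovine serum. All cells came from C57BL/6J mice, 5 days after thioglycolate was injected to draw macrophages into the peritoneum. The labels disagree on the exposure, with 3 days at 20 microgram/mL in the sample protocols and 2 days at 50 microgram/mL in the series description. The description calls the arrays of a condition independent biological replicates. It does not say which mice gave which culture. The p-values set the difference between groups against the variation between these arrays, and whether that includes variation between mice is not known. The sources used here do not give the age or sex of the mice, or whether animals were pooled.

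Most mitochondrial proteins are made in the cytosol and enter through the TOM complex of the outer membrane. From there the sorting and assembly machinery inserts outer-membrane barrels, small TIM chaperones escort membrane proteins to the TIM22 complex, and the TIM23 complex with its Hsp70 motor pulls presequence proteins into the matrix. A peptidase then removes the presequence, and matrix chaperones fold the product. In macrophages this route supplies the respiratory chain and the enzymes of fatty acid oxidation.

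Values are log2 expression levels, and differences are acLDL minus unloaded. Arrays of the same group correlated across genes at 0.994 to 0.997 (Pearson), and arrays of different groups at 0.989 to 0.991. The first principal component (53.5% of variance) separated the groups. The second (17.9%) set unloaded arrays 1 and 4, at 14.63 and 9.33, apart from unloaded arrays 2 and 3, at -9.21 and -13.42. On it acLDL arrays 1 to 4 stood at 0.62, 4.04, -8.07 and 2.10, so acLDL array 3 lay on the side of unloaded arrays 2 and 3. All 8 macrophage markers lay above 6.12, the 95th percentile of the mean levels of 1027 olfactory receptor genes, which served as background. Their summed linear level was 21770 to 22560 in acLDL arrays and 20250 to 21670 in unloaded arrays. For eosinophil and mast cell markers, of which 1 of 8 lay above background, the sum was 403.4 to 429.9 in acLDL arrays and 482.8 to 517.9 in unloaded arrays. For neutrophil markers, 0 of 7 above background, it was 247.2 to 264.0 in acLDL arrays and 263.8 to 296.7 in unloaded arrays. In limma 4 of 8 macrophage markers rose and 1 fell, and 2 of 7 neutrophil and 1 of 8 eosinophil and mast cell markers fell. The 3 measured proliferation markers rose, and their sum was 362.9 to 389.0 in acLDL arrays and 206.5 to 248.8 in unloaded arrays. For T cell, B cell and dendritic cell markers, 1 of each list above background, 0 genes passed in limma. In mesothelium and fibroblast markers 1 of 8 fell, with sums of 3713 to 4114 in acLDL arrays and 3978 to 4847 in unloaded arrays, and 6 lay above background. The part of these markers in the results below was not tested, and fewer cells of a type and less RNA per cell cannot be told apart in such samples.

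With acLDL, 8 of the 10 genes with a Tomm symbol, most of them genes of the outer-membrane gate, rose. So did 6 of 11 genes of the TIM23 channel and its motor and 3 of 8 of the TIM22 channel and small TIM chaperones. Of the 3 matrix chaperone genes 1 fell and 2 did not pass. Of the 38 members, 19 rose, 1 fell and 18 did not pass at an adjusted p under 0.05 in limma, fitted and adjusted over all 19938 genes. Over all genes 23.3% were called, 12.9% higher and 10.5% lower. Of the members 52.6% were called, and 35 of the 38 lay above the background bound of 6.12. Among all 11653 genes above that bound 33.5% were called (2287 higher, 1622 lower), with a median log2 difference of 0.03. The median log2 difference was 0.19 over the members and 0.00 over all genes. The median absolute difference was 0.33 over the 20 members called and 0.31 over the 4650 genes called, and 2 members were called and changed by 1.5-fold or more, against 405 of all genes (2.03%). The groups did not overlap in 18 members in the higher direction and in 1 member in the lower direction, against 14.0% and 11.6% of all genes.

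**Figure D1:**
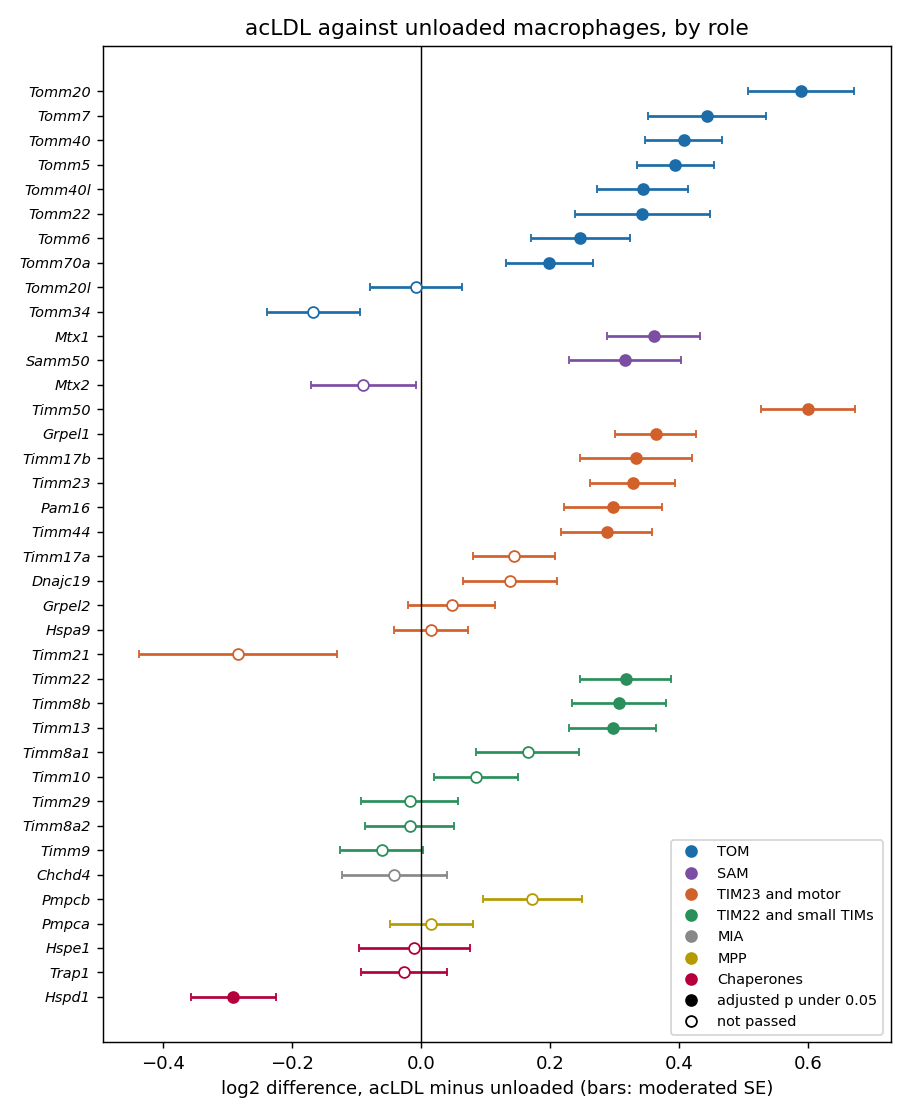
Log2 difference (acLDL minus unloaded, x axis) of each of the 38 genes with its moderated SE, grouped by role and ordered within it. Filled points passed an adjusted p of 0.05 in limma (4 arrays each). Timm50 and Tomm20 lie furthest right at 0.60 and 0.59, and Hspd1 is the filled point left of 0.

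The TOM complex is the entry gate, in which receptors pass precursors to a channel steadied by small subunits. Of the 10 genes grouped here by their Tomm symbol 8 rose, 0 fell and 2 did not pass. The 2 were Tomm34, which encodes a cytosolic cochaperone, and Tomm20l, which lay below the background bound. Tomm20, the receptor for presequences, had log2 levels of 9.53, 9.58, 9.43 and 9.57 in acLDL arrays 1 to 4, against 9.16, 8.83, 8.79 and 8.98 in unloaded arrays 1 to 4. All acLDL arrays lay above all unloaded arrays, and unloaded array 1 was the highest of its group. Tomm20 was 1.504-fold higher (log2 difference 0.59 ± 0.08 SE, limma adjusted p = 0.000176). Its promoter on chromosome 8 (GRCm38.p6, chr8:126945872-126946171, minus strand; RefSeq; 250 bases before to 50 after the gene start) is shown because it is the TOM gene with the largest rise. Capitals mark the E-box letters CACGTG.
Tomm20 promoter: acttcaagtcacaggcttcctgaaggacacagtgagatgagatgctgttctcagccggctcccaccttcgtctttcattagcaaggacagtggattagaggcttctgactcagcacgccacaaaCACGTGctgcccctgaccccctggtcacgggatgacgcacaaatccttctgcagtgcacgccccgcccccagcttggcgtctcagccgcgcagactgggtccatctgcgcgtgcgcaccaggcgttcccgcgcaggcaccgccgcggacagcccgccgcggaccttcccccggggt

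Tomm40 forms the channel itself. It stood at 8.94, 9.002, 8.92 and 8.94 in acLDL arrays and at 8.62, 8.52, 8.51 and 8.51 in unloaded arrays. All acLDL values lay above every unloaded value, and unloaded array 1 stood above the other unloaded arrays. The difference was 0.41 ± 0.06 SE (limma adjusted p = 0.000247). The promoter of Tomm40 (GRCm38.p6, chr7:19715380-19715679, minus strand; RefSeq) is shown because it held 5 copies of the letters CCAAT, marked in capitals, the core bound by the factor NF-Y. The next highest count in a member window was 3, in Timm17b.
Tomm40 promoter: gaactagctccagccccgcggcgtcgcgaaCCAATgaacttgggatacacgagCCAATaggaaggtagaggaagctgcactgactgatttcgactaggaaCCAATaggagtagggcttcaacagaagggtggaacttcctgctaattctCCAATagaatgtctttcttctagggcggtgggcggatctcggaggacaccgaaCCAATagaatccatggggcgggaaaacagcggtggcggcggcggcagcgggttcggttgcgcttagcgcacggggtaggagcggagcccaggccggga

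The small subunits Tomm5, Tomm6 and Tomm7 surround the channel. Tomm7 had 9.31, 9.33, 9.19 and 9.04 in acLDL arrays, against 9.02, 8.61, 8.78 and 8.69 in unloaded arrays. The groups nearly met, at acLDL array 4 and unloaded array 1. The difference was 0.44 ± 0.09 SE (limma adjusted p = 0.00323). Tomm5 had 8.16, 8.15, 8.16 and 8.10 in acLDL arrays, against 7.67, 7.72, 7.83 and 7.76 in unloaded arrays. Its groups lay well apart, with a difference of 0.39 ± 0.06 SE (limma adjusted p = 0.000345). Tomm6 rose by less, at 8.36 ± 0.11 in acLDL cells and 8.11 ± 0.11 in unloaded cells (log2, SD, n = 4).

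The other receptors rose too. Tomm22, the central receptor, had 8.56, 8.29, 8.10 and 8.16 in acLDL arrays, against 8.15, 7.83, 7.77 and 7.99 in unloaded arrays. It was the called member whose groups overlapped, since unloaded array 1 lay above acLDL array 3. Tomm70a, the receptor for carrier proteins brought by cytosolic chaperones, was at 9.64 ± 0.04 in acLDL cells and 9.44 ± 0.11 in unloaded cells (log2, SD, n = 4). Its adjusted p in limma was 0.0466, close to the threshold. The channel paralogue Tomm40l was at 7.87 ± 0.07 in acLDL cells and 7.53 ± 0.12 in unloaded cells, a difference of 0.34. The calls of Tomm22, Tomm6 and Tomm70a were lost when single arrays were left out, with adjusted p up to 0.0927, 0.103 and 0.122 in limma.

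Tomm34, a cytosolic cochaperone named for its link to import, was at 8.79 ± 0.10 in acLDL cells and 8.96 ± 0.10 in unloaded cells (log2, SD, n = 4; difference -0.17, limma adjusted p = 0.116). The paralogue Tomm20l was at 5.99 ± 0.08 in acLDL and 5.99 ± 0.11 in unloaded cells, below the background bound of 6.12. Neither passed.

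**Figure D2:**
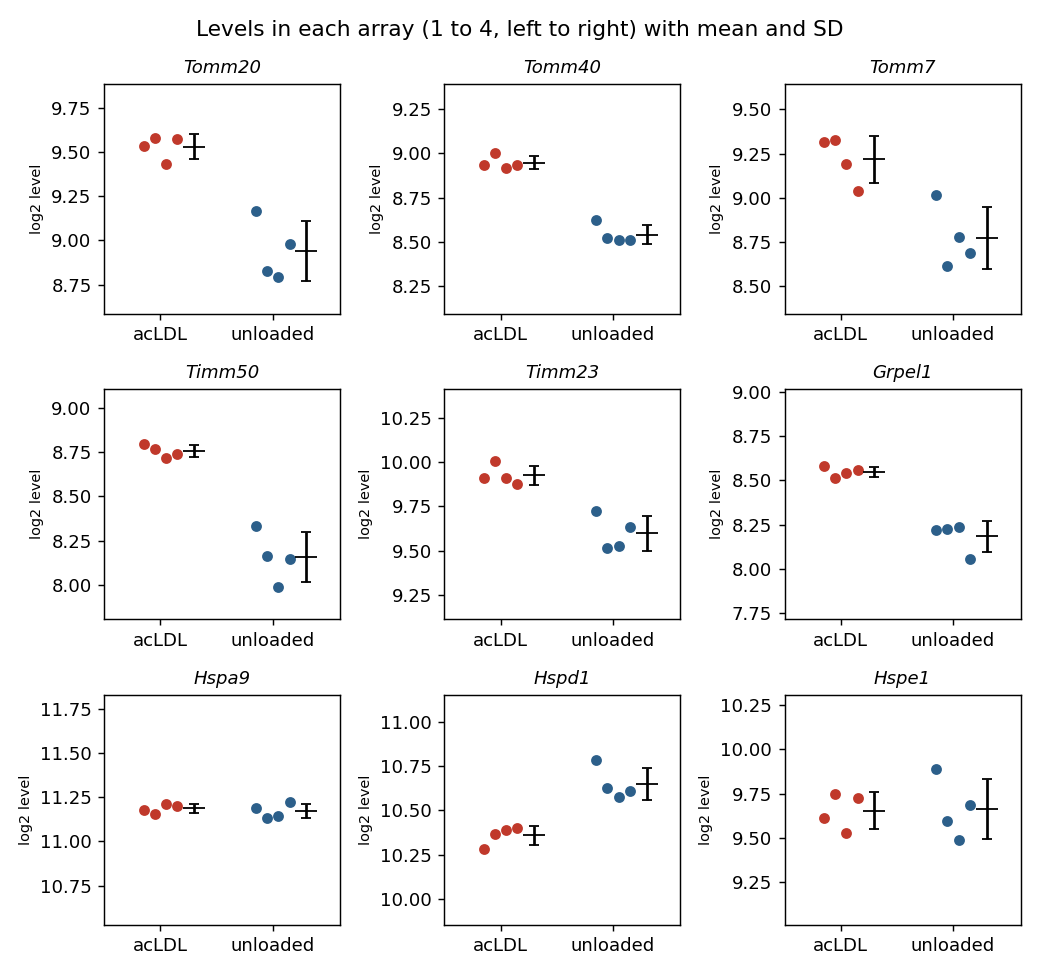
Log2 level (y axis, with the same span in every panel) of 9 genes in acLDL arrays (red, left) and unloaded arrays (blue, right), arrays 1 to 4 from left to right, with the group mean and SD in black. The acLDL points of Tomm20, Tomm40, Tomm7, Timm50, Timm23 and Grpel1 lie above all unloaded points, those of Hspd1 below, and those of Hspa9 and Hspe1 among them.

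The sorting and assembly machinery folds beta-barrel proteins such as Tomm40 into the outer membrane. Samm50, its barrel subunit, was at 8.45 ± 0.08 in acLDL cells and 8.13 ± 0.19 in unloaded cells (log2, SD, n = 4), and it rose by 0.32 ± 0.09 SE. Its call was lost without acLDL array 1 (limma adjusted p = 0.0581). Mtx1, a metaxin of the same complex, had 8.33, 8.30, 8.34 and 8.43 in acLDL arrays, against 8.14, 7.84, 8.04 and 7.94 in unloaded arrays. The groups did not overlap, and the difference was 0.36 ± 0.07 SE (limma adjusted p = 0.00250). The partner metaxin Mtx2 did not pass, at 7.61 ± 0.08 in acLDL cells and 7.70 ± 0.16 in unloaded cells.

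The TIM23 complex takes presequence proteins across or into the inner membrane. Of 11 genes of the channel and its motor 6 rose, 0 fell and 5 did not pass. Timm50, the receptor that hands precursors from TOM to the channel, had the largest difference of all members. It stood at 8.80, 8.77, 8.72 and 8.74 in acLDL arrays, against 8.33, 8.16, 7.99 and 8.15 in unloaded arrays. The groups lay far apart, and the SD was 0.04 over the acLDL arrays and 0.14 over the unloaded arrays. Timm50 was 1.51-fold higher (log2 difference 0.60 ± 0.07 SE, limma adjusted p = 6.17e-05), above 98.8% of all genes by its difference. Its promoter (GRCm38.p6, chr7:28311997-28312296, minus strand; RefSeq) is shown for that rank. Capitals mark CCAAT on either strand and, just past the gene start, the YY1 core AAGATGGC.
Timm50 promoter: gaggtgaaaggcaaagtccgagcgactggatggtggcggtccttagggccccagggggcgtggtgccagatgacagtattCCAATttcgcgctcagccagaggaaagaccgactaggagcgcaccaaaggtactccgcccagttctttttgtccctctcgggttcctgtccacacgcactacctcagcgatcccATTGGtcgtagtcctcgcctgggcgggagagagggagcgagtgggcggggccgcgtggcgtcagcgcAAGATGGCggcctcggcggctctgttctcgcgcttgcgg

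Timm23 and the Timm17 proteins form the channel. Timm23 had 9.91, 10.00, 9.91 and 9.88 in acLDL arrays, against 9.72, 9.515, 9.52 and 9.63 in unloaded arrays. The groups did not overlap, and the difference was 0.33 ± 0.07 SE (limma adjusted p = 0.00280). The paralogues of Timm17 gave different calls. Timm17b, which was at 7.66 ± 0.15 in acLDL cells and 7.33 ± 0.13 in unloaded cells (log2, SD, n = 4), rose by 0.33 ± 0.09 SE. Timm17a was at 9.76 ± 0.07 in acLDL cells and 9.61 ± 0.07 in unloaded cells and did not pass (difference 0.14, 95% interval 0.01 to 0.28, limma adjusted p = 0.127). The difference between the paralogues was not tested. Timm21, which links the channel to TOM and to the respiratory chain, was the most variable member. It had 7.17, 7.31, 6.71 and 7.26 in acLDL arrays, against 7.86, 7.40, 7.18 and 7.13 in unloaded arrays. Unloaded array 1 and acLDL array 3 stood furthest out, and the difference of -0.28 ± 0.15 SE did not pass.

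The motor is built on the matrix Hsp70, encoded by Hspa9, which Timm44 tethers to the channel, Dnajc19 and Pam16 regulate, and Grpel1 and Grpel2 recharge by exchanging its nucleotide. Hspa9 itself was at 11.18, 11.16, 11.21 and 11.20 in acLDL arrays, against 11.19, 11.13, 11.15 and 11.22 in unloaded arrays. The groups lay on top of each other, and the difference was 0.02 with a 95% interval of -0.11 to 0.14. Grpel1 had 8.58, 8.51, 8.54 and 8.56 in acLDL arrays, against 8.22, 8.23, 8.24 and 8.05 in unloaded arrays. It rose by 0.36 ± 0.06 SE (limma adjusted p = 0.000909). Grpel2 did not pass, with a difference of 0.05 ± 0.07 SE. Timm44 was at 8.49 ± 0.08 in acLDL cells and 8.20 ± 0.11 in unloaded cells, and Pam16 at 8.22 ± 0.10 in acLDL cells and 7.92 ± 0.125 in unloaded cells (log2, SD, n = 4), and both rose. Dnajc19, at 7.25 ± 0.08 in acLDL cells and 7.12 ± 0.12 in unloaded cells, did not pass.

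The TIM22 complex inserts carrier proteins into the inner membrane, and the small TIM proteins chaperone them on the way. Of 8 genes 3 rose, 0 fell and 5 did not pass. Timm22, the channel, had 7.57, 7.30, 7.33 and 7.41 in acLDL arrays, against 7.03, 7.06, 7.09 and 7.15 in unloaded arrays. The groups did not overlap, and the difference was 0.32 ± 0.07 SE (limma adjusted p = 0.00515). The small TIM genes Timm8b and Timm13, whose products act as chaperones in the space between the membranes, rose by 0.31 and 0.30. Timm8b was at 8.16 ± 0.08 in acLDL cells and 7.86 ± 0.12 in unloaded cells, and Timm13 at 8.43 ± 0.07 in acLDL cells and 8.14 ± 0.09 in unloaded cells (log2, SD, n = 4). Timm9 and Timm10, which work as a pair, differed by -0.06 ± 0.06 and 0.09 ± 0.06 SE, and Timm8a1 by 0.17 ± 0.08 SE. None of these passed in limma, nor did Timm29, a TIM22 subunit (-0.02 ± 0.08 SE), or Timm8a2 (-0.02 ± 0.07 SE). Timm9 and Timm8a2 lay below the background bound, with means over all arrays under 6.12.

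Chchd4, the oxidase receptor that traps small TIM proteins by disulfide exchange, was at 7.25 ± 0.17 in acLDL cells and 7.29 ± 0.07 in unloaded cells (log2, SD, n = 4). The peptidase that removes presequences has the subunits Pmpca and Pmpcb. Pmpca differed by 0.02 ± 0.06 SE and Pmpcb by 0.17 ± 0.08 SE, and 0 of these 3 genes passed in limma. Pmpcb passed without unloaded array 1 (difference 0.24, limma adjusted p = 0.0169).

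**Figure D3:**
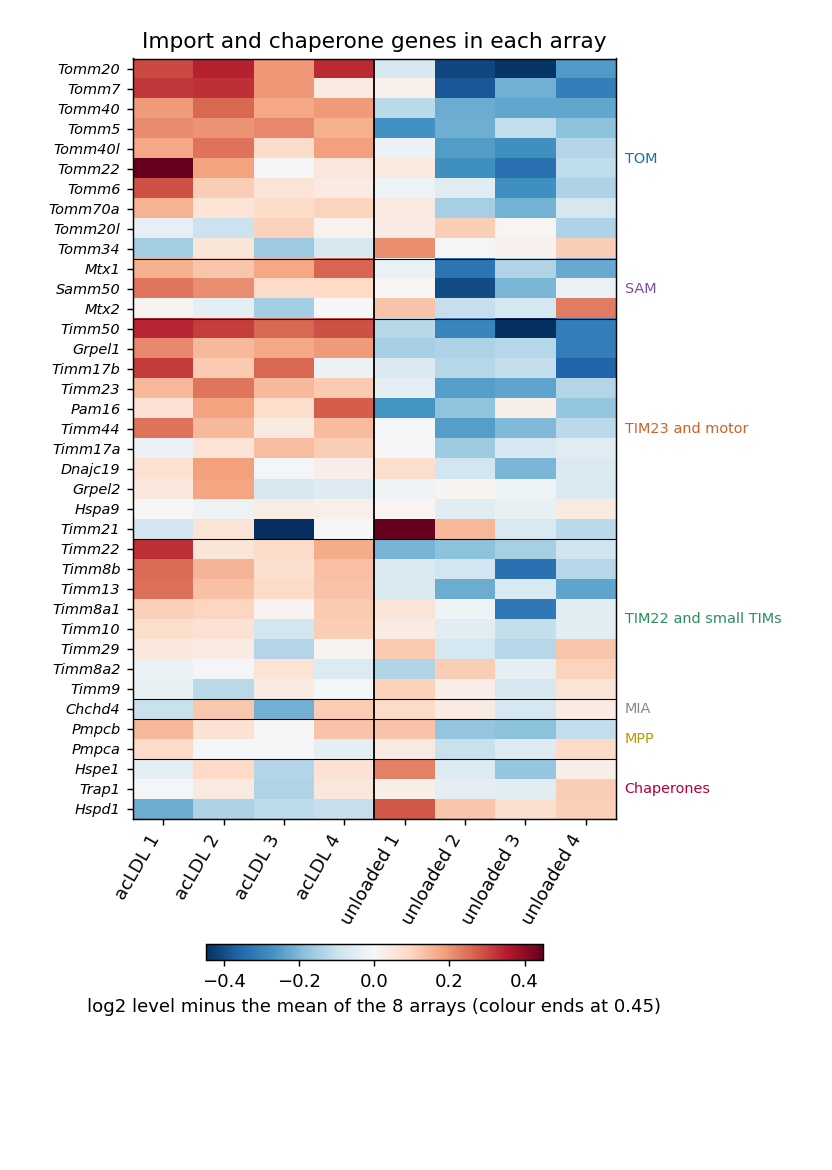
Log2 level of each of the 38 genes (rows, by role) in each array (columns, acLDL left of the line), as the deviation from the mean of the 8 arrays. Rows such as Tomm20, Tomm40, Timm50 and Timm23 are red in all acLDL arrays and blue in all unloaded arrays, and Hspd1 runs the other way.

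Of the 3 matrix chaperone genes 0 rose. Hspd1 and Hspe1 encode Hsp60 and Hsp10, the barrel and lid of the folding chamber. Hspd1 had 10.28, 10.37, 10.39 and 10.40 in acLDL arrays, against 10.78, 10.63, 10.58 and 10.61 in unloaded arrays. All acLDL arrays lay below all unloaded arrays, and Hspd1 fell by 0.29 ± 0.07 SE on the log2 scale (limma adjusted p = 0.00546). Hspe1 had 9.61, 9.75, 9.53 and 9.72 in acLDL arrays, against 9.89, 9.60, 9.49 and 9.69 in unloaded arrays. Its groups overlapped throughout (difference -0.01, 95% interval -0.19 to 0.17). Trap1, a mitochondrial relative of Hsp90, differed by -0.03 ± 0.07 SE and did not pass.

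Hspd1 and Hspe1 lie head to head on chromosome 1, and 285 of the 300 bases of the Hspe1 promoter window (GRCm38.p6, chr1:55087898-55088197, plus strand; RefSeq) are also in an Hspd1 window on the opposite strand. Hspd1 also has a second window (chr1:55088194-55088493, minus strand), which shares only 4 bases with the Hspe1 window. That window held the letters CACGTG and CCAAT and not CCGGAAG. The Hspe1 window is shown because the pair with the shared stretch gave different calls. The difference between their changes was not tested. Capitals mark overlapping copies of the ETS-family letters CCGGAAG, 1 on each strand.
Hspe1 promoter: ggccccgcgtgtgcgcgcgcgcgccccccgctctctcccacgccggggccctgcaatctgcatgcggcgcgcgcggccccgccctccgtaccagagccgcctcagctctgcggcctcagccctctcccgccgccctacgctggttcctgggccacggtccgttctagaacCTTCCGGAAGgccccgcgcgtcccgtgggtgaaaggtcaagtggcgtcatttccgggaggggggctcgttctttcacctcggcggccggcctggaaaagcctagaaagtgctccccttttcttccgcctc

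Hspd1 and 6 other members had several probe sets, and these did not always give the same size. For Hspd1, the dimmer probe set had 9.03, 9.28, 8.955 and 9.20 in acLDL arrays, against 9.64, 9.555, 9.64 and 9.86 in unloaded arrays. It fell by 0.56 ± 0.09 SE (limma adjusted p = 0.000444 over all annotated probe sets), against 0.29 for the brighter one. The ID of the brighter probe set lies among IDs of genes on chromosome 11, not 1. Probe set IDs on this array run along the chromosomes, and the chromosome of the 10 neighbours on each side differed from that of the named gene in 3.18% of 21698 probe sets. Among the members it differed for the probe sets used for 7 genes, namely Hspd1, Hspe1, Pam16, Timm23, Timm8a1, Tomm20 and Tomm22. Signal from a near-identical copy elsewhere in the genome cannot be told apart from that of the named gene in such a probe set, so the values of these genes are uncertain.

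For Tomm20 the second probe set, placed with its own chromosome, rose by 0.57 ± 0.08 SE, against 0.59 for the one used. The 4 probe sets of Timm23 gave differences of 0.33 to 0.42, and 2 of them held the same value in every array. These 2 were the one used, among IDs of chromosome 1, and 1 among IDs of chromosome 14, its own. The probe set with the difference of 0.42 also lay among IDs of chromosome 14. The second probe set of Timm17a, among IDs of chromosome 7, differed by 0.055 ± 0.085 SE. That of Timm8a1, placed with its own chromosome, differed by 0.13 ± 0.086 SE, and neither passed in limma. The second Hspe1 probe set differed by 0.03 ± 0.07 SE. For Pam16 the second probe set differed by 0.20 ± 0.07 SE. With it the call was lost (limma adjusted p = 0.0650, a setting chosen after seeing the data). Tomm22 had 1 probe set, placed among IDs of chromosome 4 in place of 15.

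**Figure D4:**
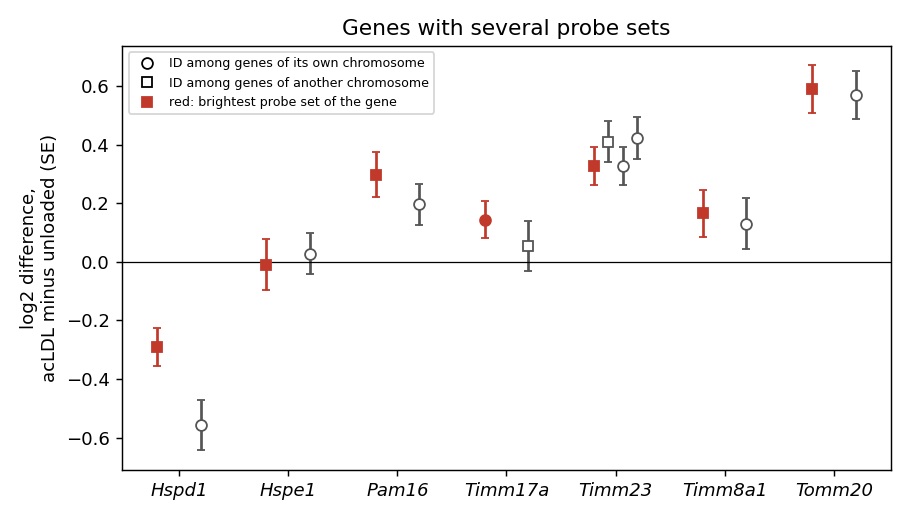
Log2 difference (acLDL minus unloaded, y axis, with SE) of every probe set of the 7 genes with several. Red marks the brightest probe set, squares those whose ID lies among genes of another chromosome. The probe sets of Hspd1 both lie below 0, at -0.29 and -0.56, and those of Tomm20 lie at 0.59 and 0.57.

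The arrays of a group were not equal over the 19 genes that rose. Unloaded array 1 was the highest unloaded array in 15 of them, and acLDL array 1 the highest acLDL array in 11. The median deviation of the 38 members from the unloaded mean was 0.22, 0.21, 0.17 and 0.19 in acLDL arrays 1 to 4. It was 0.10, -0.04, -0.06 and 0.02 in unloaded arrays 1 to 4, so the lowest acLDL array lay above the highest unloaded one. Without array 1 of both groups, a setting chosen after seeing the data, 18 members rose and 1 fell.

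Members were also read by genomic span. Of 20 members with a genomic span under 10000 bases 13 rose, with a median difference of 0.30. Of 18 longer members 6 rose and 1 fell, with a median of 0.09. Of all genes, of any span, 12.9% rose and 10.5% fell. The difference between short and long members was not tested. Calls among all genes of the same spans were not counted, so whether the split is particular to the members is not known. Removing the trend of each array with span left 19 members higher and 1 lower.

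Promoter windows of 300 bases were matched for 33 of the 38 members, in 36 windows, and not for Grpel2, Hspa9, Timm21, Tomm40l and Tomm7. The ETS-family letters CCGGAAG, read on both strands, stood in 16 of the 36 windows (44.4%), belonging to 15 genes. They stood in 8.86% of all 32851 windows, in 11.6% of windows of protein-coding genes and in 34.7% of 75 windows of mitochondrial ribosomal protein genes. Of 18 windows of genes that rose 6 held them. One such gene is Timm23, which held them on both sides of its gene start (GRCm38.p6, chr14:32201842-32202141, minus strand; RefSeq), shown in capitals.
Timm23 promoter: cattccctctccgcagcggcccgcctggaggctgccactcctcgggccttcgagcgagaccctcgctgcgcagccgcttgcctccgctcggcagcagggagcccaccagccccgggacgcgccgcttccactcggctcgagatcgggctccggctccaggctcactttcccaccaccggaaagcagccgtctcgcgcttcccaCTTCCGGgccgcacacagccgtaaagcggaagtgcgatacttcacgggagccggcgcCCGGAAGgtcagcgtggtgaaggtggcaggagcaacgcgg

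The other motifs were read the same way. The E-box CACGTG, a palindrome, stood in 16.7% of member windows and 7.15% of all windows, and in 1 of the 18 windows of genes that rose. CCAAT stood in 30.6% and 37.4%, the YY1 letters AAGATGGC in 5.6% and 2.75%, and the NRF1 letters CGCATGCG in 2.8% and 1.87%. The cyclic AMP element TGACGTCA stood in 2.8% and 1.79%, and the CHOP and ATF4 element TGATGNAA in 0 member windows and 3.97% of all windows. Some windows overlap, as those of Hspd1 and Hspe1 do. The median GC content was 59.8% in member windows and 52.7% in all windows.

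Other genes of the import and quality-control route were read from 7 lists, of which 80 of 89 symbols were measured. Of these 26 rose, 7 fell and 47 did not pass. The share called was 41.2%, against 23.3% of all genes and 33.5% of genes above the background bound. By list it ran from 18.2% in matrix cochaperones and assembly factors to 58.3% in cytosolic chaperones and targeting factors. The cytosolic chaperones that deliver precursors went both ways, with 3 of 12 higher and 4 lower. Bag1, a cochaperone of Hsp70, rose by 0.48, while the Hsp40 genes Dnaja1, Dnajb6 and Dnaja2 fell by 0.46, 0.41 and 0.30 on the log2 scale. Hspa8, the constitutive cytosolic Hsp70, differed by 0.12 ± 0.06 SE and did not pass. Among import partners and insertases 6 of 15 rose and 0 fell. Dnajc15, a paralogue of Dnajc19 in the motor, was 1.75-fold higher, at 7.96 ± 0.12 in acLDL cells and 7.15 ± 0.16 in unloaded cells (log2, SD, n = 4; limma adjusted p = 2.47e-05). Gfer, which reoxidises Chchd4, rose by 0.40 (limma adjusted p = 0.00720), Mtch1 by 0.39 and Romo1, which works with TIM23, by 0.36.

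Of 5 further peptidases of precursors 2 rose, Immp1l by 0.33 and Mipep by 0.26, with overlapping groups in both. The call of Mipep was lost without acLDL array 1 or 2 and without unloaded array 1, 2 or 3, with adjusted p of 0.0539 to 0.128 in limma. Mitochondrial proteases and prohibitins were mixed, with 5 of 13 higher and 2 lower. Stoml2, Clpp and Phb2 rose by 0.45, 0.36 and 0.32, and Yme1l1, an inner-membrane protease, fell by 0.38 on the log2 scale. Among matrix cochaperones and assembly factors 2 of 11 rose (18.2% called, under the 23.3% of all genes). These were Iscu, the iron-sulfur scaffold, by 0.67 and Sdhaf1, an assembly factor of succinate dehydrogenase, by 0.56. With the mean of its probe sets in place of the brightest, Iscu rose by 0.48. Of 8 genes of cristae organisation 4 rose and 0 fell, namely Chchd10, Chchd3, Micos13 and Chchd6, by 0.58, 0.40, 0.30 and 0.26.

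Of 16 regulators of mitochondrial biogenesis and stress 4 rose and 1 fell by this comparison. That is 31.2% called, against 23.3% of all genes and 33.5% of genes above the background bound. Myc was 1.61-fold higher (limma adjusted p = 2.47e-05), Cebpb and Atf5 rose by 0.51 and 0.46, and Pprc1, a PGC-1 related coactivator, by 0.37. The gene that fell was Tfb2m, a mitochondrial transcription factor, by 0.34 on the log2 scale, chosen for mention after its value was seen. Gabpa, encoding an ETS factor, differed by -0.19 ± 0.08 SE and Nrf1 by 0.07 ± 0.08 SE, and neither passed. The levels of Ddit3, which encodes CHOP, and Atf4 differed by 0.01 ± 0.08 and -0.15 ± 0.07 SE and did not pass either.

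The classes of mitochondrial genes nearest to the import genes were counted the same way. Of 77 mitochondrial ribosomal protein genes 38 rose and 1 fell, with a median difference of 0.24. Of 86 oxidative phosphorylation genes, Nduf-named assembly factors included, 47 rose and 2 fell, with a median of 0.27. The import genes had a median of 0.19, and 27 of 38 differences were above 0. So were 70 of 77 in the ribosomal protein genes, 73 of 86 in the oxidative phosphorylation genes and 9817 of all 19938 genes. The shares called were 50.6% and 57.0% in the 2 neighbouring classes and 52.6% in the import genes, against 23.3% of all genes. No test of a difference between these classes was made.

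**Figure D5:**
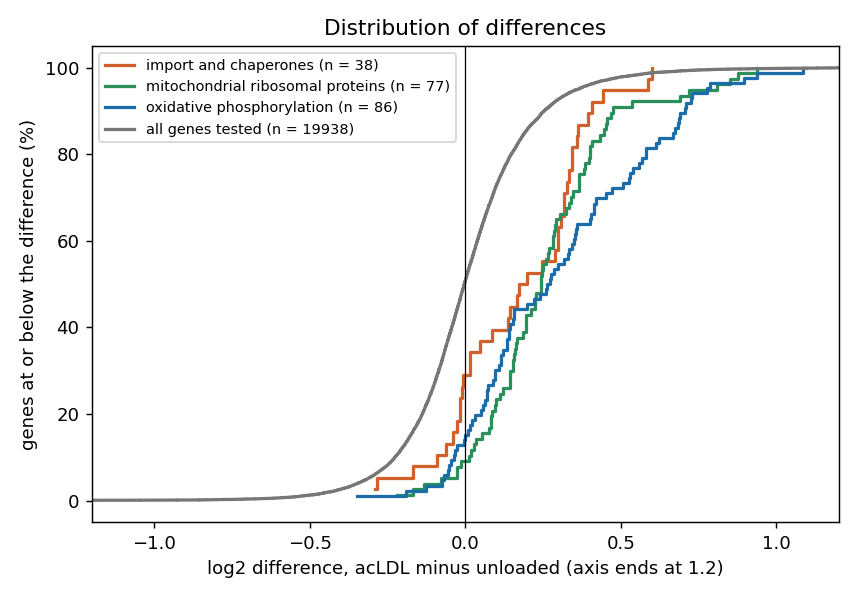
Share of genes (y axis, percent) at or below each log2 difference (x axis, acLDL minus unloaded) for the 38 import and chaperone genes, 77 mitochondrial ribosomal protein genes, 86 oxidative phosphorylation genes and all 19938 genes. The 3 mitochondrial curves lie right of the curve of all genes over most of their range, and the import genes end at 0.60.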

How the data were processed

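The labels' protocols give total RNA isolated with RNeasy columns and labelled by Affymetrix protocols. Each deposited value is a log2 expression level, and the submitters' processing notes name RMA. RMA corrects background, matches array distributions and summarises probes, and it compresses differences of dim genes. No version or setting of RMA is given in the sources used here.

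Of 35557 probe sets, 21789 had 1 gene symbol, 1621 had several and 12147 were not in the annotation used here. Entrez identifiers of 21698 were in the RefSeq table of GRCm38.p6, which changed 0 symbols. The brightest probe set of each gene left 19938 genes. Differences (acLDL minus unloaded) were fitted by limma (version 3.58.1, R 4.3.3, two-sided, with lmFit and eBayes), without a block, with Benjamini-Hochberg adjustment over all genes. The limma step was tested on simulated data with 200 of 19938 genes changed. It recovered 18% of 1.2-fold and 88% of 1.5-fold changes, and 6 of 158 calls were false. In the real arrays 4650 genes were called, so these shares do not carry over directly. Precision is limited by 4 arrays a group, and the median SE of a difference was 0.07.

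The members, gene lists and alternatives were chosen with earlier results of these data known. Every member is named, and per-array values are given for the 6 largest rises, the fall and members the text turns on. Up to 4 called genes of each further list are named, those with the largest change, and Hspa8, Tfb2m, Gabpa, Nrf1, Ddit3 and Atf4 were added after their values were seen. Correlations of deviations between arrays with equal replicate numbers ran from -0.226 to 0.373, and between arrays with unequal numbers from -0.402 to 0.388. The labels tie the numbers to nothing shared, so they were not treated as pairs. Whether equal numbers share an effect was not tested. The deviations of acLDL array 3 correlated at 0.388 and 0.373 with those of unloaded arrays 2 and 3. With those of unloaded arrays 1 and 4 they correlated at -0.402 and -0.34, and the cause was not tested. Promoter sequences are from RefSeq (GRCm38.p6). Plots used matplotlib 3.10.9 (Python 3.11.15).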

Additional observations from a re-analysis of the deposited data

Results flagged for a closer look

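Over the 38 members and 24 partner genes, 124 groups of 4 arrays were read, and 4 had an array set apart from the others of its group, and chance alone gives about 1 in 20. Tomm40 stood at 8.62 in unloaded array 1, against 8.52 in the nearest unloaded array. Grpel1 stood at 8.05 in unloaded array 4, against 8.22 in the nearest. Mtch1, whose product sits in the outer membrane, stood at 10.44 in acLDL array 1, against 10.25 in the nearest acLDL array. It stood at 10.05 in unloaded array 1, against 9.86 in the nearest unloaded array.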

How the results depend on the processing

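Of 870 values of members under 23 alternatives, 838 kept their side of the threshold, 26 fell short of it, 6 newly passed and 0 turned direction past it. Of the 20 called members, 14 passed in every alternative that tested them; the exceptions were Tomm22, Samm50, Pam16, Timm44, Tomm6 and Tomm70a. The count of members higher was 14 without unloaded arrays 2 and 3 and 19 without unloaded arrays 1 and 4, 17 with median centring, and 15 to 20 in the fits that each lacked 1 array. The count lower was 2 after repeated quantile normalization and after cyclic loess, where Tomm34 passed, and 3 without unloaded arrays 2 and 3, where Mtx2 and Tomm34 passed at adjusted p of 0.0488 and 0.0492 in limma; the cause was not tested. It was 1 without each array in turn. With a replicate block 19 members were higher and 1 lower, 4860 genes were called in place of 4650 and 33 partner genes as before, and since the labels tie the numbers to nothing shared, this is no paired result. Over all genes 3618 to 4590 were called without each array in turn, and 29 to 31 of the partner genes. Of 552 values of the 24 partner genes named by the rule, 541 kept their side and 11 fell short, in Mipep, Immp1l and Chchd6, with adjusted p up to 0.193, 0.108 and 0.0772 in limma. For the 7 genes whose probe set lies among IDs of another chromosome, signal from copies was not tested.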
